A study of Homo sapiens with 9 samples.

Results

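The genes described here encode 10 enzymes that build purine and pyrimidine nucleotides from small precursors: CAD, DHODH, UMPS, CTPS1, PPAT, GART, PAICS, ATIC, IMPDH1 and IMPDH2. They were taken by gene symbol, and all 10 were found among the 27407 features of the table. Transcript levels came from RNA sequencing of 9 libraries of cells labelled Weri-RB1/CRP, a carboplatin-resistant retinoblastoma cell line. The control libraries carried the short hairpin RNA shNC, and the others carried shSNHG1#1 or shSNHG1#2, hairpins meant to lower the long noncoding RNA SNHG1, with 3 libraries in each group. All groups shared the resistant line and one growth protocol (RPMI 1640 with fetal bovine serum), and no label records carboplatin in the medium or a parental line. SNHG1 itself was not analysed here, so the groups follow the labels. The labels do not say whether replicates were separate cultures, so the p-values cover the variation among these libraries alone, and part or all of it may be technical.

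Cells make nucleotides by new synthesis and by salvage of free bases and nucleosides. In pyrimidine synthesis, CAD makes the ring precursor from glutamine, bicarbonate and aspartate, DHODH oxidises it at the mitochondrial membrane, UMPS yields uridine monophosphate, and CTPS1 turns UTP into CTP. In purine synthesis, PPAT commits activated ribose phosphate to the pathway, GART, PAICS and ATIC carry out later steps up to inosine monophosphate, and IMPDH1 and IMPDH2 divert inosine monophosphate towards guanine nucleotides. In the retina, IMPDH1 is the main form of photoreceptors, whereas IMPDH2 is the form typical of dividing cells. Several of these genes are textbook targets of the transcription factor MYC, which binds the letters CACGTG.

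Markers of retinal cells were mostly near 0. Of 14 matched retinal and photoreceptor markers, 11 stayed below 1 FPKM (a level corrected for transcript length and library size) in every library, among them CRX, RCVRN and ARR3. The summed level of the list was 21.6 to 22.8 FPKM in shNC, 19.9 to 20.7 in shSNHG1#1 and 19.8 to 20.8 in shSNHG1#2, and most of it was GNAT2, at up to 19.6 FPKM. The sum of 8 epithelial markers was 1637 to 1638 FPKM in shNC, 1518 to 1611 in shSNHG1#1 and 1523 to 1614 in shSNHG1#2. Most of that sum was KRT8 and KRT18, with means of 783 and 762 FPKM in shNC, and CLDN7 and ESRP1 stayed below 1 in every library. Mean levels of EPCAM and CLDN4 were higher with the hairpins, whereas those of KRT8, KRT18, KRT19 and CDH1 were lower. Total estimated counts were 21502093 to 21606498 per library. A feature without a gene symbol held 6.57% to 7.09% of counts in shNC libraries and 11.8% to 13.5% in the others.

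Promoter sequences are shown for the genes on which the results turn. CAD had the largest rise, and ATIC rose and holds CACGTG. PPAT and PAICS start head to head. PAICS fell, and PPAT varied too much among libraries to show whether it differed from PAICS. Sequences are RefSeq's, build GRCh38.p14, and are the reference, not reads of these cells. The build behind the deposited table is not given in the sources used here. For CAD (chr2:27217119-27217368, plus strand) and ATIC (chr2:215311809-215312058, plus strand) the 250 bases before the start are printed. For PPAT and PAICS the 136 bases between the PPAT start on the minus strand and a PAICS start on the plus strand are printed (chr4:56435616-56435751, plus strand). The last line is a 30-base stretch of the PPAT promoter (chr4:56435780-56435809, minus strand). Capitals mark matches to CACGTG, to GGGCGG (a GC box) or to CCAAT, on either strand.
CAD: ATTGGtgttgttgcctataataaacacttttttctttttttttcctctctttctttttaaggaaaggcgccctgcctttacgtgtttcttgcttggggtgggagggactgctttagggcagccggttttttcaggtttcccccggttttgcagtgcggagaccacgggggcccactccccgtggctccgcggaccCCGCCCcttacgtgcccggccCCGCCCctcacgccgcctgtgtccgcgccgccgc
ATIC: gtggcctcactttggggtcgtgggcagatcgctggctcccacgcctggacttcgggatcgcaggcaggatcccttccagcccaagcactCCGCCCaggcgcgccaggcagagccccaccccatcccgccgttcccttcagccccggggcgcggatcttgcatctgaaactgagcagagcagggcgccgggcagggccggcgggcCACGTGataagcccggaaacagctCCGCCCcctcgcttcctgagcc
PPAT and PAICS: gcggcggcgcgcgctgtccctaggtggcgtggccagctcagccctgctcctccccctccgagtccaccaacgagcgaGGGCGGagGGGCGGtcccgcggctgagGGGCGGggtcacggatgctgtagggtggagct
PPAT site: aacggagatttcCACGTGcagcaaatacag

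Motifs were counted in windows of 300 bases, 250 before and 50 after each start. RefSeq had 14 such windows for 9 of the genes, and IMPDH2 had no entry. CACGTG was present in 4 of the 14 windows (28.6%), 1 each of DHODH, PPAT, PAICS and ATIC, and 7.26% of 35116 windows of all genes hold it. The PPAT and PAICS matches are the same letters, since their windows overlap. GGGCGG was present in 9 of the 14 windows (64.3%), against 45.0% of all windows, and only UMPS of the 9 genes had it in no window. CCAAT was present in 5 of the 14 (35.7%), of CAD, DHODH and GART, against 34.6% of all windows. Of the letters sought for E2F factors, TTTGGCGC was present in 1 window, of GART (0.652% of all windows) and TTTCCCGC for no member (1.63% of all windows). A match is a string of letters, not a shown binding site. Letters outside these windows were not sought, so a gene without a match, such as CAD for CACGTG, may hold one nearby.

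In the control libraries the enzymes of late purine synthesis were the most abundant. The order by mean level in shNC was PAICS, IMPDH2, ATIC, GART, IMPDH1, CTPS1, CAD, PPAT, UMPS and DHODH, from 73.9 to 3.12 FPKM. Neighbours whose libraries overlapped were IMPDH2 and ATIC, GART and IMPDH1, and CAD and PPAT. With either hairpin ATIC came above PAICS, although their libraries overlapped there, and CAD stood clear of PPAT. The lowest member, DHODH, had 113 to 166 counts per library, and the highest, PAICS, had 4361 to 5160.

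**Figure D1:**
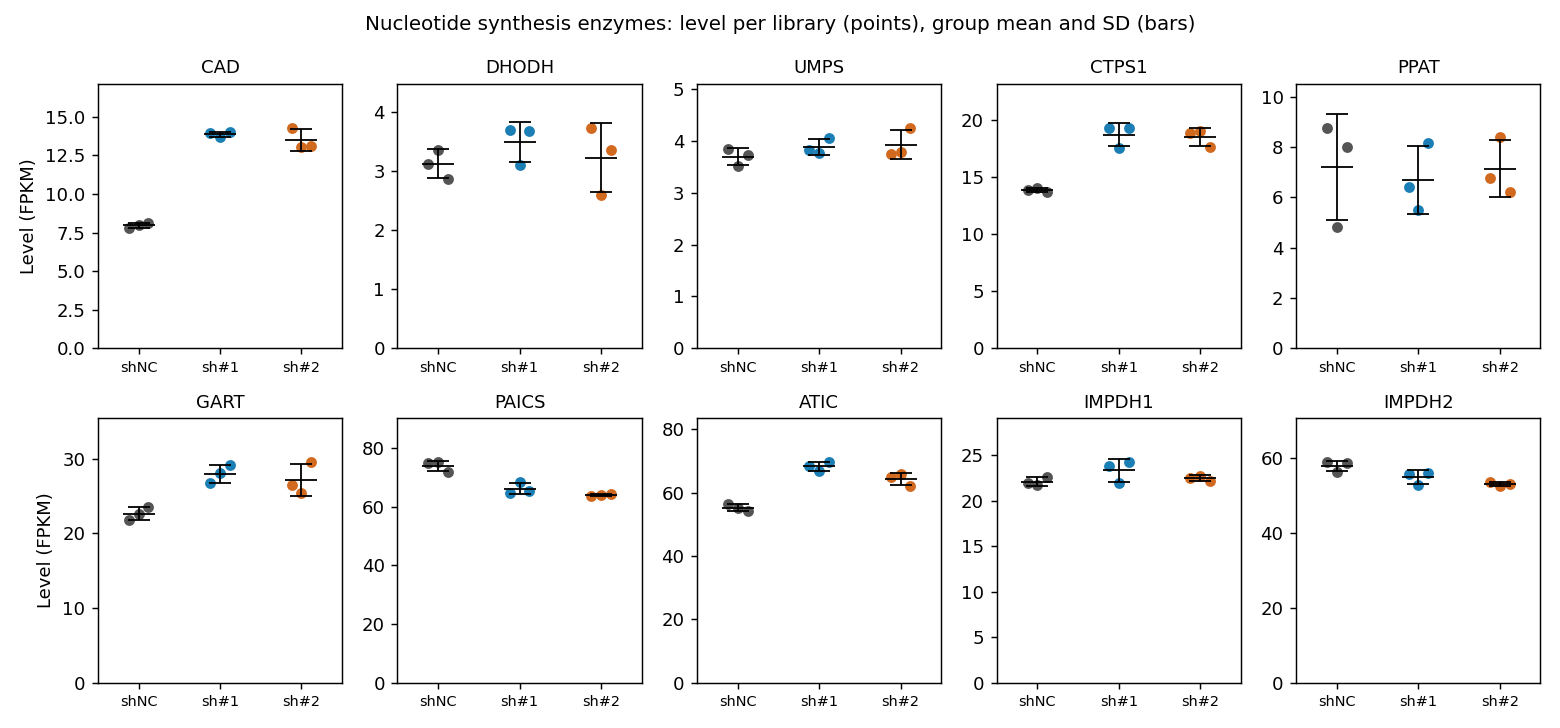
Level in FPKM (vertical axes, from 0) of each of the 10 enzyme genes in the 9 libraries, with sh#1 and sh#2 standing for shSNHG1#1 and shSNHG1#2; points are libraries, bars the group mean and SD (n = 3). CAD stands at 7.77 to 8.11 in shNC and at 13.1 to 14.3 in the other libraries, while the 3 groups of PPAT, DHODH and UMPS overlap.

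Against shNC, 4 of the 10 genes rose with each hairpin (CAD, CTPS1, GART and ATIC), 2 fell (PAICS and IMPDH2) and 4 did not pass the test (DHODH, UMPS, PPAT and IMPDH1). Genes passed at an adjusted p below 0.05 in edgeR's quasi-likelihood test on counts, adjusted over 18767 features by the Benjamini-Hochberg method. With shSNHG1#1 48.1% of all features passed, 24.5% higher and 23.5% lower, and with shSNHG1#2 46.2% passed, 23.3% higher and 22.8% lower. The count of 6 of 10 members was thus near the share among all features. The contrasts use the same shNC libraries, so their likeness is not independent evidence. The median log2 fold change of the members was 0.14 with shSNHG1#1 and 0.12 with shSNHG1#2, beside medians of 0.02 and 0.01 over all features. No member passed with a change of 2-fold or more, as 6.18% and 5.29% of all features did. In FPKM, 6 of 10 members had no overlap with shNC for each hairpin, 4 of them higher, beside 53.3% (30.4% higher) and 52.6% (31.3% higher) of all features. In bulk RNA, fewer cells that express a gene and less of its RNA per cell cannot be told apart.

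**Figure D2:**
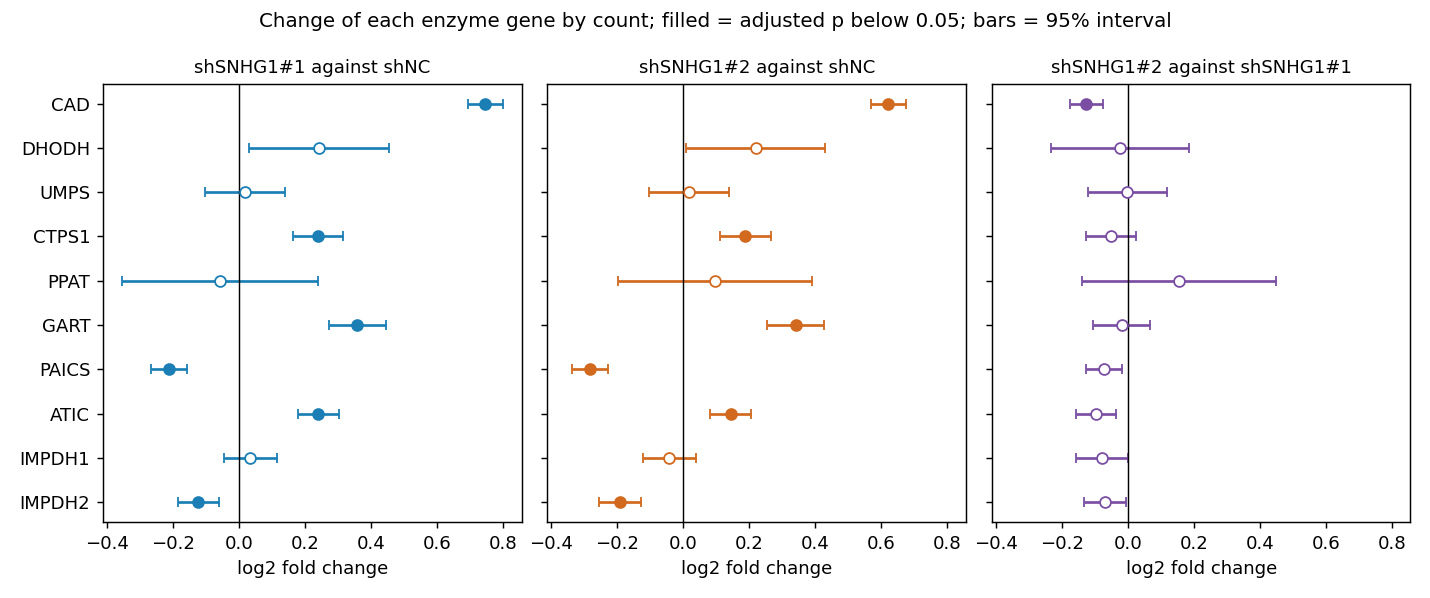
Log2 fold change by count (horizontal axis) of each enzyme gene in the 3 comparisons. Bars span the nominal 95% interval from the SE and the normal distribution, narrower than the F test implies and without adjustment for many tests. Filled points have an adjusted p below 0.05. CAD lies at 0.75 and 0.62 against shNC, PAICS at -0.21 and -0.28, and the widest bars belong to PPAT and DHODH.

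Pyrimidine synthesis began with the clearest change of the set. CAD, the multifunctional enzyme of the opening steps, stood at 7.77, 8.01 and 8.11 FPKM in shNC, at 13.9, 13.7 and 14.0 in shSNHG1#1 and at 14.3, 13.1 and 13.1 in shSNHG1#2. Every library of either hairpin lay above every shNC library. By counts CAD rose 1.68-fold with shSNHG1#1 (log2 fold change 0.75, SE 0.03, adjusted p = 4.4e-09) and 1.54-fold with shSNHG1#2 (0.62, SE 0.03, adjusted p = 2.5e-08). The group means were 7.96 ± 0.175, 13.9 ± 0.163 and 13.5 ± 0.705 FPKM (SD, n = 3).

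CTPS1, which makes CTP, stood at 13.9, 14.0 and 13.7 FPKM in shNC, at 19.2, 17.5 and 19.3 in shSNHG1#1 and at 18.9, 19.0 and 17.6 in shSNHG1#2. The shNC libraries were the lowest 3, with no overlap. By counts CTPS1 rose by a log2 fold change of 0.24 with shSNHG1#1 (SE 0.04, adjusted p = 4.4e-04) and of 0.19 with shSNHG1#2 (SE 0.04, adjusted p = 0.0024). By FPKM the ratio of means was larger, 1.35 and 1.33. Its sister gene CTPS2, which encodes a second CTP synthase, did not pass with either hairpin (log2 fold change -0.07 and 0.03). The ratio of CTPS1 to CTPS2 in FPKM was 2.16 to 2.26 in shNC, 2.70 to 3.19 in shSNHG1#1 and 2.55 to 2.98 in shSNHG1#2. An exact two-sided permutation test gave p = 0.1 for each hairpin against shNC, the smallest that 3 against 3 libraries allow.

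The middle steps of the pyrimidine pathway did not pass. DHODH, the mitochondrial dehydrogenase, stood at 3.12, 3.36 and 2.87 FPKM in shNC, at 3.69, 3.10 and 3.67 in shSNHG1#1 and at 3.73, 2.59 and 3.35 in shSNHG1#2, so the groups overlapped. Its log2 fold changes by count were 0.24 (interval 0.03 to 0.45, adjusted p = 0.0896) and 0.22 (0.0069 to 0.43, adjusted p = 0.126). It passed with shSNHG1#1 when counts were scaled by library totals alone (log2 fold change 0.29, adjusted p = 0.0468). Intervals here are nominal 95% ones, from the SE and the normal distribution, without adjustment for many tests. They are narrower than the F test implies, so an interval that leaves out 0 is not a call. UMPS, which makes uridine monophosphate, lay between 3.52 and 4.26 FPKM in all 9 libraries. Its log2 fold changes were 0.02 (interval -0.10 to 0.14) and 0.02 (-0.10 to 0.14), and the groups overlapped.

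In the purine pathway up to inosine monophosphate, members went in different directions. PPAT, the committing enzyme, stood at 8.77, 4.82 and 8.01 FPKM in shNC, at 6.41, 5.49 and 8.15 in shSNHG1#1 and at 6.78, 8.40 and 6.22 in shSNHG1#2. The spread within groups exceeded the differences between them, and log2 fold changes were -0.06 (interval -0.35 to 0.24) and 0.10 (-0.20 to 0.39). GART, a trifunctional enzyme of the middle steps, stood at 21.8, 22.7 and 23.6 FPKM in shNC, at 26.8, 28.0 and 29.2 in shSNHG1#1 and at 26.5, 25.4 and 29.5 in shSNHG1#2, with no overlap. By counts it rose 1.28-fold (log2 fold change 0.36, SE 0.04, adjusted p = 5.8e-05) and 1.27-fold (0.34, SE 0.04, adjusted p = 9.7e-05).

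PAICS, a bifunctional enzyme that follows, stood at 74.9, 75.1 and 71.9 FPKM in shNC, at 64.7, 68.3 and 65.4 in shSNHG1#1 and at 63.5, 63.8 and 64.2 in shSNHG1#2. All shNC libraries were above the other 6. By counts PAICS fell by 0.21 on the log2 scale (SE 0.03, adjusted p = 8.8e-05) with shSNHG1#1 and fell by 0.28 (SE 0.03, adjusted p = 1.2e-05) with shSNHG1#2. PAICS and PPAT share the head-to-head stretch printed above. The PAICS to PPAT ratio in FPKM ran from 8.54 to 15.6 in shNC, 8.03 to 12.4 in shSNHG1#1 and 7.60 to 10.3 in shSNHG1#2, with overlapping groups (exact two-sided permutation test, p = 0.8 and p = 0.7 against shNC).

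ATIC, the bifunctional enzyme that closes the purine ring, stood at 56.4, 55.2 and 54.3 FPKM in shNC, at 68.4, 66.8 and 69.5 in shSNHG1#1 and at 64.9, 65.9 and 62.0 in shSNHG1#2. The shNC libraries were lowest, and those of shSNHG1#1 lay above those of shSNHG1#2. By counts ATIC rose by a log2 fold change of 0.24 with shSNHG1#1 (SE 0.03, adjusted p = 8.9e-05) and of 0.14 with shSNHG1#2 (SE 0.03, adjusted p = 0.0034). The log2 ratio of its mean FPKM was 0.30 and 0.22.

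The IMP dehydrogenase genes, which open the guanine branch, differed from each other. IMPDH2 stood at 58.9, 56.3 and 58.6 FPKM in shNC, at 55.9, 52.8 and 56.1 in shSNHG1#1 and at 53.7, 52.6 and 53.0 in shSNHG1#2. The shNC libraries were above all others, the closest being 56.3 against 56.1. IMPDH2 fell by 0.12 on the log2 scale with shSNHG1#1 (SE 0.03, adjusted p = 0.0083) and fell by 0.19 with shSNHG1#2 (SE 0.03, adjusted p = 5.4e-04). The log2 ratio of its mean FPKM was smaller in size, -0.08 and -0.13. With shSNHG1#1 it no longer passed when counts were scaled by library totals alone (adjusted p = 0.0814) or with limma on log2(FPKM + 1) (adjusted p = 0.0683).

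IMPDH1 stood between 21.8 and 24.2 FPKM in all 9 libraries and did not pass, with log2 fold changes of 0.03 (interval -0.04 to 0.11) and -0.04 (-0.12 to 0.04). IMPDH2 exceeded IMPDH1 in every library. The ratio of IMPDH2 to IMPDH1 in FPKM was 2.59 to 2.68 in shNC, 2.32 to 2.41 in shSNHG1#1 and 2.31 to 2.39 in shSNHG1#2, without overlap with shNC. The exact two-sided permutation test gave p = 0.1 for each hairpin against shNC, again the smallest possible, and p = 1 between the hairpins. The ratios of paralogues and of PAICS to PPAT were chosen after the data were seen. Over the 9 such ratio tests the lowest p, 0.1, became 0.225 after Benjamini-Hochberg adjustment of the exact p-values.

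Between the 2 hairpins, log2 fold changes of the members ran from -0.13 to 0.15. Their median was -0.06, beside -0.002 over all features. In shSNHG1#2 against shSNHG1#1, 1 of 10 members passed and 9 did not, where 3.12% of all features passed (1.12% lower and 2% higher). No member was 2-fold different, as 0.197% of all features were. In FPKM, PAICS and ATIC did not overlap between the hairpins, both lower with shSNHG1#2, beside 19.2% of all features (12.1% higher). CAD was lower with shSNHG1#2 by counts (log2 fold change -0.13, SE 0.03, adjusted p = 0.0268), yet its FPKM values overlapped between the hairpins. That call was lost without any of the 6 hairpin libraries, with adjusted p from 0.0618 to 0.174. It was also lost when counts were scaled by totals alone (0.0625), with no filter on low counts (0.0559), with only the groups compared (0.0656) and with limma on log2(FPKM + 1) (0.714). For the others the interval of the difference was widest for PPAT (log2 fold change -0.14 to 0.45) and DHODH (-0.23 to 0.19). For PAICS it was -0.13 to -0.02 and for ATIC -0.16 to -0.04, and neither passed after adjustment (adjusted p = 0.232 and 0.152).

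Counts and FPKM did not always give the same size of change. FPKM divides by a gene length, and the fold changes by count use TMM scaling of the libraries. The length implied by count and FPKM varied little for IMPDH2 (1684 to 1690 bases over the 9 libraries) and UMPS (6971 to 7057). For CTPS1 it was 3852 to 3980 bases in shNC but 3511 to 3568 in shSNHG1#1 and 3401 to 3574 in shSNHG1#2. The shNC lengths of CTPS1 did not overlap those of the hairpins. For GART the lengths were 3526 to 3843, 3755 to 4045 and 3939 to 4246 bases, and the rise of 23.5% and 19.8% in mean FPKM was smaller than that in counts scaled by library totals, 32.4% and 32.5%. For CAD the length was 7093 to 7269 bases in shNC and shSNHG1#1 but reached down to 6436 in shSNHG1#2. For DHODH the lengths were 1829 to 1946, 2013 to 2203 and 1978 to 2527 bases, so here too shNC did not overlap the hairpins. Its mean FPKM rose 11.9% and 3.42%, and its counts scaled by library totals rose 22.3% and 21.8%. DHODH and PPAT (2813 to 3716 bases) had the widest ranges of the set as a ratio of highest to lowest (1.38 and 1.32). Which transcripts account for this was not tested, as the table gives genes only.

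**Figure D3:**
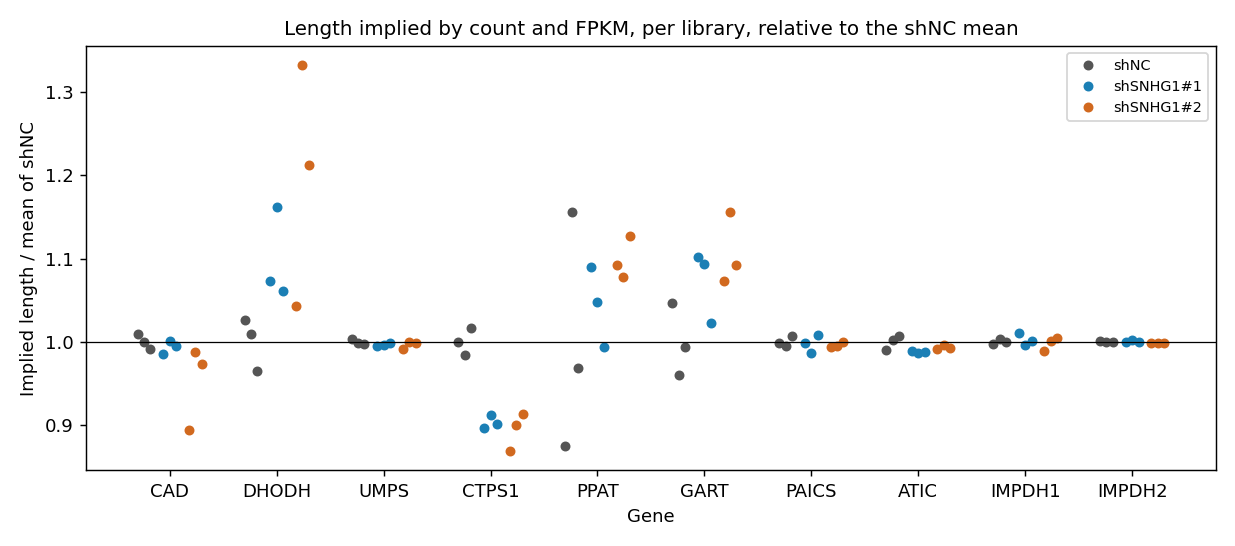
Length implied by count and FPKM (vertical axis, divided by the mean of the shNC libraries; the axis does not start at 0) for each enzyme gene, with points for libraries. CTPS1 lies below 1 in all 6 hairpin libraries, whereas PAICS, ATIC, IMPDH1, IMPDH2 and UMPS stay close to 1 throughout.

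The other enzymes of new synthesis also divided. Of 10 genes for the remaining steps and for ribose phosphate activation, 5 rose and 1 fell with shSNHG1#1 (median log2 fold change 0.07), and 4 rose and 1 fell with shSNHG1#2 (median 0.05). For this list and those below, the shares of all features were 48.1% called with shSNHG1#1 (24.5% higher, 23.5% lower) and 46.2% with shSNHG1#2 (23.3% higher, 22.8% lower). A list count near these shares is no trait of the list, and no list was tested as a set. PRPS1, which makes the activated ribose that PPAT uses, went from 19.0 ± 0.693 FPKM to 28.8 ± 0.899 and 29.8 ± 1.04 (SD, n = 3) and rose 1.46-fold and 1.49-fold by counts (adjusted p = 7.0e-07 and 5.5e-07). ADSS1, an adenylosuccinate synthase known from muscle, rose 1.62-fold and 1.63-fold from 3.56 ± 0.501 FPKM, whereas the related ADSS2 did not pass (log2 fold change -0.10 and -0.06), though with shSNHG1#1 its adjusted p was 0.0527 and 9 of 16 alternatives called it lower. PFAS, the enzyme between GART's steps, rose 1.17-fold and 1.10-fold. GMPS, which makes guanosine monophosphate after the IMPDH step, rose 1.09-fold with shSNHG1#1 and did not pass with shSNHG1#2 (log2 fold change 0.07). PRPS2 rose 1.11-fold and 1.14-fold, and PRPSAP2, a regulatory partner of these synthetases, fell by 0.26 and fell by 0.24 on the log2 scale. ADSL, CTPS2 and PRPSAP1 did not pass with either hairpin.

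Several of these small changes lay near the threshold of the test. GMPS with shSNHG1#1 failed the test when shNC replicate 1 was left out, and when replicate 2 or 3 of shSNHG1#1 was (log2 fold change 0.09 to 0.11 against 0.12, adjusted p up to 0.0771). PFAS with shSNHG1#2 failed it when replicate 1 or 2 of either group was left out (log2 fold change 0.12 to 0.13 against 0.13, adjusted p up to 0.0631). PRPS2 with shSNHG1#1 failed it when any of the 3 shNC libraries was left out, without replicate 2 or 3 of shSNHG1#1 or without replicate 2 or 3 of shSNHG1#2, with no filter and with only the groups compared (log2 fold change 0.10 to 0.14 in these fits, adjusted p up to 0.167). PRPSAP2 with shSNHG1#2 failed it with limma on log2(FPKM + 1) (log2 fold change -0.16, adjusted p = 0.0609).

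**Figure D4:**
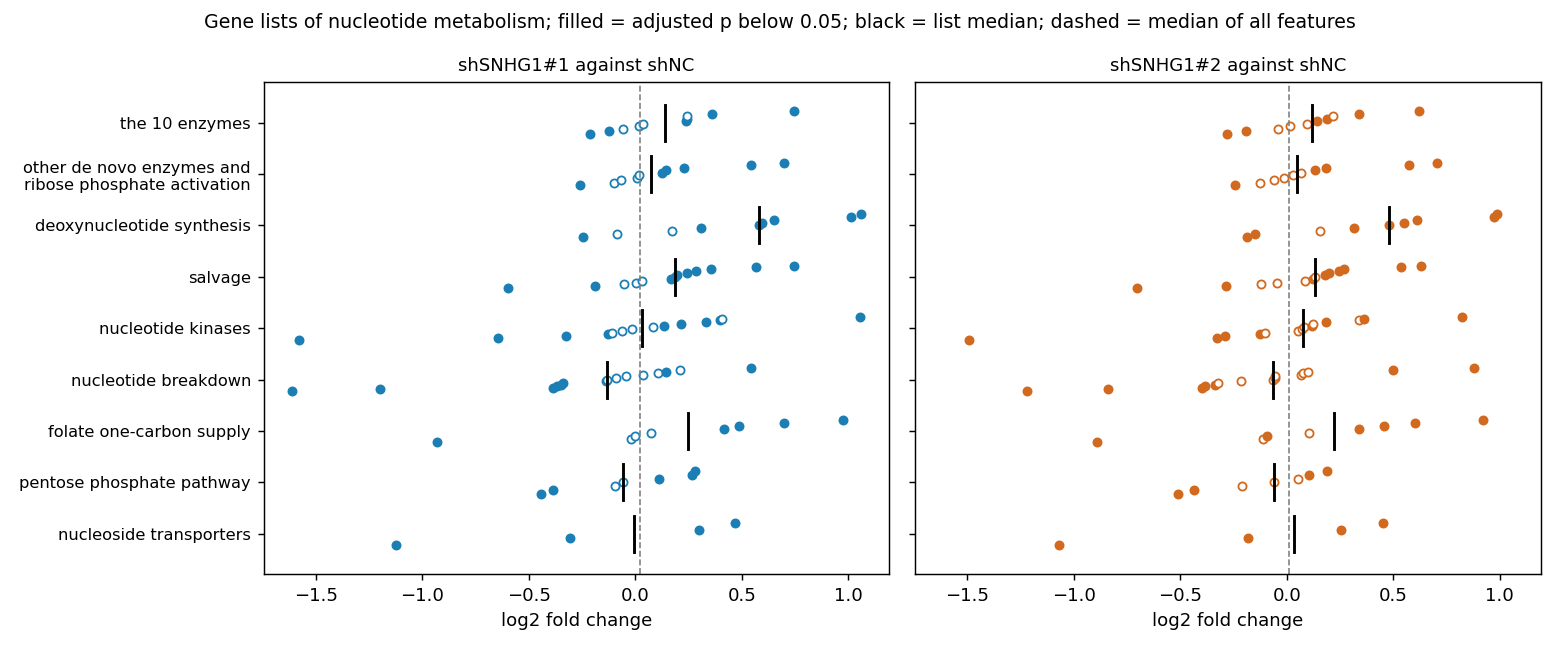
Log2 fold change by count (horizontal axis) against shNC of every tested gene in lists of nucleotide metabolism; filled points have an adjusted p below 0.05, black bars are list medians and dashed lines the median of all features. Deoxynucleotide synthesis has the highest list median, 0.58 with shSNHG1#1 and 0.48 with shSNHG1#2, and nucleotide breakdown the lowest of those plotted, -0.14 and -0.07.

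Among 9 genes of deoxynucleotide synthesis, which turns ribonucleotides into DNA precursors, 6 rose and 1 fell with shSNHG1#1 and 6 rose and 2 fell with shSNHG1#2. TYMS, the thymidylate synthase, went from 24.8 ± 0.561 FPKM to 33.5 ± 1.72 and 33.8 ± 1.57 (SD, n = 3), ratios of 1.35 and 1.36. By counts it rose by less, with log2 fold changes of 0.31 and 0.32. RRM1, the large subunit of ribonucleotide reductase, rose 1.49-fold and 1.39-fold. SAMHD1, which degrades deoxynucleotides, fell by 0.25 and fell by 0.19 on the log2 scale. DCTD, a deoxycytidylate deaminase, fell by 0.15 with shSNHG1#2, a call that failed in 6 of 16 alternatives, among them without shNC replicate 2, without replicate 1 or 2 of shSNHG1#2, by library totals alone (log2 fold change -0.08, adjusted p = 0.233) and with limma on log2(FPKM + 1) (-0.09, adjusted p = 0.183).

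Of 13 salvage genes, 8 rose and 2 fell with shSNHG1#1, and 7 rose and 2 fell with shSNHG1#2, with medians of 0.19 and 0.13. HPRT1, which recovers hypoxanthine and guanine, fell by 0.19 and fell by 0.29 on the log2 scale by counts, from 38.7 ± 1.80 FPKM (SD, n = 3), and the log2 ratio of mean FPKM was -0.12 and -0.19. UPP1, a uridine phosphorylase, fell by 0.60 and fell by 0.70 by counts, but the log2 ratio of its mean FPKM was -0.33 and -0.44. APRT, which recovers adenine, rose by 0.24 on the log2 scale with shSNHG1#1, a call that failed when replicate 1 or 2 of shNC or replicate 1 or 3 of shSNHG1#1 was left out (adjusted p up to 0.0720), and did not pass with shSNHG1#2 (log2 fold change 0.13, adjusted p = 0.153).

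Of 14 nucleotide kinases, 5 rose and 4 fell with shSNHG1#1, and 4 rose and 4 fell with shSNHG1#2. AK4, a mitochondrial adenylate kinase known to respond to hypoxia, fell by 1.58 and fell by 1.49 on the log2 scale, from 12.5 ± 0.235 to 4.12 ± 0.263 and 4.31 ± 0.171 FPKM (SD, n = 3). CMPK2 fell by 0.64 and fell by 0.33, and GUK1, the guanylate kinase, fell by 0.33 and fell by 0.29 by counts (log2 ratio of mean FPKM -0.21 and -0.18). With shSNHG1#2 GUK1 failed the test under limma on log2(FPKM + 1) (adjusted p = 0.0556). NME1 rose 1.32-fold and 1.28-fold and NME2 did not pass, but these are close copies that may share reads.

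Of 15 tested genes of nucleotide breakdown, 6 fell and 2 rose with shSNHG1#1, and 5 fell and 2 rose with shSNHG1#2. NT5C3A, a nucleotidase of pyrimidine monophosphates, had the lowest log2 fold change of the list with each hairpin. It fell by 1.61 and fell by 1.22 on the log2 scale, from 189 ± 4.39 FPKM to 63.7 ± 2.92 and 86.3 ± 4.97 (SD, n = 3). NT5C2 fell by 0.37 and fell by 0.38. GDA, the guanine deaminase, rose 1.46-fold and 1.84-fold from 0.613 ± 0.110 FPKM. XDH, the xanthine oxidoreductase, rose 1.41-fold with shSNHG1#2 and did not pass with shSNHG1#1 (log2 fold change 0.11), and limma on log2(FPKM + 1) did not call the former (adjusted p = 0.0756). GMPR2, a GMP reductase, rose 1.10-fold with shSNHG1#1, a call that failed in 11 of 16 alternatives, among them without shNC replicate 1 or 2, without shSNHG1#1 replicate 1 or 3 and without any shSNHG1#2 library (adjusted p up to 0.155). The sister gene GMPR fell with each hairpin (adjusted p = 7.6e-05 and 9.4e-04), and neither call failed in any alternative. GMPR went from 2.61 ± 0.195 FPKM in shNC to 1.11 ± 0.0586 in shSNHG1#1 and 1.48 ± 0.118 in shSNHG1#2 (SD, n = 3).

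Suppliers of the pathway were mixed. Of 8 tested folate enzymes, which carry the formyl groups used by GART and ATIC, 4 rose and 1 fell with shSNHG1#1, and 4 rose and 2 fell with shSNHG1#2. SHMT2, a mitochondrial serine hydroxymethyltransferase, rose by 0.48 and 0.34 on the log2 scale, while MTHFD1L, a mitochondrial formate-producing synthetase, fell by 0.93 and fell by 0.89 on the log2 scale. MTHFD2 fell by 0.09 with shSNHG1#2, a call lost by library totals alone and with limma on log2(FPKM + 1) (adjusted p up to 0.440). Of 7 pentose phosphate genes, which yield ribose phosphate, 3 rose and 2 fell with shSNHG1#1, and 2 rose and 2 fell with shSNHG1#2. TKT, the transketolase, fell by 0.39 and fell by 0.51 from 712 ± 16.7 FPKM (SD, n = 3). PGLS, a lactonase of the oxidative arm, fell by 0.44 and fell by 0.43. Of 4 tested nucleoside transporter genes, 2 rose and 2 fell with each hairpin. With shSNHG1#2, 1 rose and 1 fell when shNC replicate 1 or shSNHG1#2 replicate 2 was left out. There the fall of SLC29A3 (adjusted p = 0.0337) failed in 8 of 16 alternatives and the rise of SLC29A2 (adjusted p = 0.0249) in 4. With shSNHG1#1 the rise of SLC29A2 failed in 2. SLC29A1, the main equilibrative nucleoside transporter, rose 1.38-fold and 1.37-fold, while SLC29A4 fell by 1.12 and fell by 1.07.

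Of 7 factors known to act on genes of these pathways, 2 rose and 5 fell with shSNHG1#1, and 2 rose and 4 fell with shSNHG1#2. The 5 include E2F3 (log2 fold change -0.14, adjusted p = 0.0486), a call that failed in 7 of 16 alternatives. MYC went from 58.0 ± 0.929 FPKM in shNC to 20.9 ± 0.840 and 23.7 ± 0.582 (SD, n = 3), and fell by 1.52 and fell by 1.35 on the log2 scale. MXI1, another gene of this list, fell by a like amount, by 1.51 and by 1.41 on the log2 scale. Its mean level went from 36.2 FPKM in shNC to 13.3 in shSNHG1#1 and 14.4 in shSNHG1#2. ATF4, a factor of the amino acid response, fell by 0.40 and fell by 0.47. E2F1, a factor of S phase genes, rose 1.67-fold and 1.77-fold, and E2F2 rose 3.05-fold and 2.81-fold. Of the members with CACGTG in a window, ATIC rose, PAICS fell, and DHODH and PPAT did not pass. The part of MYC, MXI1, ATF4, E2F1 or E2F2 in the results for the enzymes was not tested.

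Profiles most like each member were sought among 12707 other genes of a mean log2 CPM (counts scaled by library size) of at least 2. The measure was the root mean square difference of log2 profiles centred over the 9 libraries. For CAD the nearest were FMNL1 (0.029), CDK1 (0.033), the kinase that drives mitosis, and NUDT5 (0.036). For PAICS they were EIF4B (0.021), ZNF518B (0.025) and EIF3E (0.026), and for IMPDH2 EIF4A1 (0.019), RAD17 (0.022) and STAMBP (0.023). EIF4B, EIF3E and EIF4A1 encode translation initiation factors. For ATIC they were SDHA (0.023), PHB (0.029) and GTF3C1 (0.029), and for GART VGLL3 (0.030), TSN (0.032) and ORC1 (0.036). For CTPS1 they were PRDX6, OASL and PEBP1 (0.021 to 0.023), for UMPS ANKRD24, CREBL2 and RHBDD1 (0.025 to 0.033) and for IMPDH1 GANAB, EPHB4 and CD99L2 (0.025 to 0.029). For DHODH, NMT2, MORN4 and SNRPD1 were less close (0.052 to 0.067), and for PPAT CAPS, ZNF718 and PRR5-ARHGAP8 were farther still (0.097 to 0.118). Within the set, CTPS1 and ATIC were the closest pair (0.032), followed by PAICS and IMPDH2 (0.061), and CAD and PAICS were farthest apart (0.44). These distances are descriptions over 9 libraries in 3 groups.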

How the data were processed

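The deposited table gives an estimated count and an expression value per gene and library, per the file headers. The authors' expression values are taken as FPKM, since each count divided by its value and by the library total gives a plausible gene length. The submitters' processing notes list RSEM 1.2.12, HISAT2 2.0.4, DESeq2 1.4.5 and Bowtie2 2.2.5 without saying what each did. The sources used here give no genome build, annotation or strand setting.

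After rounding of the estimated counts, edgeR 4.0.16 (R 4.3.3) was run with TMM scaling, filterByExpr and the quasi-likelihood F test. The 9 libraries entered 1 model whose single factor was the group. Of 27407 features, 18767 were tested, with Benjamini-Hochberg adjustment in each contrast. All 10 enzyme genes passed the filter on low counts. SEs were derived from the F statistic, and intervals from the SE by the normal distribution. The fit was tested on simulated data. Alternatives were DESeq2 1.42.0, library totals alone, RLE factors, no filter, only the groups compared, a replicate block, limma 3.58.1 on log2(FPKM + 1), and each library left out. The replicate numbers were not used to pair libraries. Replicates differed by more than sampling noise (chi-square per degree of freedom 3.06 to 6.20).

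The members and lists were chosen with earlier results of these data known. Named by rule were all members, all other enzymes of new synthesis, MYC, E2F1, ATF4 and, of each other list, the 2 genes of highest mean FPKM and up to 5 called against the list's majority. Of the genes this rule names, 2 are not reported here. Of 23603 gene identifiers, 22938 matched RefSeq.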

Additional observations from a re-analysis of the deposited data

Results flagged for a closer look

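CAD differed between the hairpins in the test of shSNHG1#2 against shSNHG1#1, with a log2 fold change of -0.13 by counts. Its rise over shNC was 0.75 with shSNHG1#1 and 0.62 with shSNHG1#2 on the log2 scale. The adjusted p was 0.0268, and the call was lost without any single library of either hairpin (adjusted p 0.0618 to 0.174) and by limma on log2(FPKM + 1) (0.714).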

How the results depend on the processing

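Against shNC, the number of enzyme genes that passed stayed at 6 with each hairpin when any of the 9 libraries was left out, and lay between 5 and 6 under the other alternatives. Between the hairpins it was 1, but 0 by library totals alone, with no filter, with only the groups compared, with the replicate block and with limma on log2(FPKM + 1), and 0 to 1 with a library left out. All features that passed there numbered 586, but 970 with DESeq2, 386 with only the groups compared, and 297 to 534 with a library left out (297 without shSNHG1#2 replicate 2, 349 without shSNHG1#2 replicate 3 and 351 without shSNHG1#1 replicate 3). By library totals alone the share higher among these calls was 74.8% against 64.0%, and with shSNHG1#2 against shNC 60.9% against 50.5%. With limma on log2(FPKM + 1) the share between the hairpins was 76.9%.

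With the replicate block, 6, 6 and 0 members passed. Same-numbered libraries did not deviate together (correlations -0.04 to 0.03), and 4 of 9 libraries correlated best with their own number. These values show no sign of pairing, but with 3 libraries per group they cannot exclude a shared culture or batch. Under the block, DCTD with shSNHG1#2 did not pass (log2 fold change -0.15, adjusted p = 0.0523).

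In 25 of 480 comparisons a member's log2 fold change changed sign, never with a call. IMPDH1 with shSNHG1#2 was 0.023 by library totals and 0.025 by limma. Between the hairpins, UMPS was 0.0034 with DESeq2, 0.017 by totals, 0.0034 with RLE factors, 0.0018 with no filter and 0.013 by limma, and GART was 0.00052 by totals. With a library left out, UMPS ranged from -0.025 to 0.041 with shSNHG1#1, from -0.041 to 0.042 with shSNHG1#2 and from -0.046 to 0.039 between them. PPAT ranged from -0.21 to 0.047 with shSNHG1#1 and from -0.052 to 0.17 with shSNHG1#2. Between the hairpins DHODH ranged from -0.060 to 0.054 and GART from -0.055 to 0.020. The cause was not tested. DHODH had the fewest counts of the members, 113 in its lowest library.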
